A study of Mus musculus with 44 samples.

Results

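T cell receptor (TCR) repertoires of B16 melanoma tumours treated with AC484 were compared with those of tumours treated with aPD-1. The tumours were taken by their treatment label, which gave 30 of the 44 in the series, 15 with AC484 and 15 with aPD-1, with 1 library per tumour. AC484 is an orally available small molecule that inhibits the phosphatases PTPN2 and PTPN1, and aPD-1 is an antibody that blocks the checkpoint receptor PD-1. All mice were C57BL/6 of WT genotype carrying subcutaneous B16F10, a transplantable mouse melanoma line, and bulk tumour tissue (100 μg) was taken on day 12. The doses and schedules of both agents and the age of the mice were not given for this experiment separately. The paper states doses, schedules and an age range for its tumour challenges in general. The other 14 tumours form the control group, which the labels name Vehicle and the methods describe as untreated, and they appear below only as a background.

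Most T cells carry a receptor made of an α chain (TRA) and a β chain (TRB). Each chain is assembled in the thymus by joining V and J segments, with a D segment in between for the β chain, and bases are removed and added at the joints. The loop across the joint, the CDR3, contacts the peptide held by the MHC molecule and serves to mark a T cell's progeny. The mark is not unique, since some amino acid CDR3s were expanded in many tumours, as given below. A CDR3 read at low counts may also be carried over from another library, which was not tested for single CDR3s. T cells that meet their antigen divide, so an expanded CDR3 in a tumour is taken to mark cells that have divided. The many rare CDR3s of a tumour are taken to mark small clones, which was not tested here.

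A clone was here a distinct amino acid CDR3 of 1 chain in 1 tumour. Reads of each chain were drawn at random without replacement to the same number in every tumour, 39628 for TRB and 10432 for TRA, the smallest totals among the 30 tumours. Clones with at least 1% of the drawn reads of their chain were called expanded, those under 0.1% rare and those in between intermediate. Before the draw, the AC484 tumours held 39628 to 430457 TRB reads (median 165421) and 18508 to 315679 TRA reads (median 67192), and the aPD-1 tumours 62308 to 487275 TRB reads (median 209955) and 10432 to 108156 TRA reads (median 21959). Libraries had been made with 4 sets of index primers, as named in the deposited table, and treatment and set overlapped in set 3 alone, which held 7 AC484 and 5 aPD-1 tumours. The other 10 aPD-1 tumours were in set 2 with 2 Vehicle tumours, and the other 8 AC484 tumours filled set 4. The share of TRA among the reads assigned to a chain was 4.31% to 9.64% in the aPD-1 tumours of set 2, 26.8% to 36.1% in those of set 3, and 20.6% to 42.3% in the AC484 tumours. Library concentration was 2.06 to 11.66 nM with AC484 and 4.92 to 10.27 nM with aPD-1, and the 4 libraries under 3.5 nM were AC484 tumours 8, 9, 10 and 11 of set 4. No pair among the 30 libraries shared more than 10.5% of its TRB reads.

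The largest clones show what was being compared. Those of at most 14 residues are given with the chain, the tumour and the share of that chain's reads before the draw, and the capitals are amino acids from the N-terminal to the C-terminal end. The leading TRB clones of the AC484 tumours were as follows.
AC484 tumour 4, 51.4%, Trbj1-4: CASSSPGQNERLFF
AC484 tumour 1, 25.7%, Trbj2-7: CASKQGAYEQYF
AC484 tumour 11, 21.3%, Trbj1-1: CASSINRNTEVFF

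The aPD-1 tumours were led by TRB clones of a similar size, each with another sequence.
aPD-1 tumour 6, 57.7%, Trbj2-1: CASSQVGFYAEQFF
aPD-1 tumour 15, 28.6%, Trbj2-7: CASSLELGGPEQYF
aPD-1 tumour 13, 20.7%, Trbj1-4: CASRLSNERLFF

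Among the leading TRA clones, the same stretch encoded by Traj7 closed several CDR3s of both treatments. The largest, with 45.6% of the TRA reads of AC484 tumour 4, was 17 residues long and is not printed.
AC484 tumour 4, 29.7%, Traj7: CAAKDYSNNRLTL
AC484 tumour 9, 23.7%, Traj7: CAVKDYSNNRLTL
aPD-1 tumour 15, 35.0%, Traj7: CAASDYSNNRLTL
aPD-1 tumour 6, 27.3%, Traj33: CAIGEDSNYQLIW
aPD-1 tumour 11, 26.2%, Traj7: CAVSIHSNNRLTL

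The AC484 tumours held more rare TRB clones than the aPD-1 tumours, whereas the numbers of expanded and intermediate clones and the reads they held did not pass the test. Rare TRB clones numbered 1653 to 6844 with AC484 (median 2289) and 635.5 to 2463 with aPD-1 (median 1642). All 15 AC484 tumours lay above the aPD-1 median and the ranges overlapped. The means were 2758 ± 1315 and 1544 ± 553 (SD, n = 15 each), a ratio of 1.79 and a difference of 1214 clones (95% interval over tumours 596 to 1971, two-sided permutation test, p = 0.00027, adjusted p = 0.00675 over 50 measures of both chains). Of these 50 measures 2 passed the test, which is 4.00%. Within index set 3 the means were 2358 and 1214 (exact two-sided permutation test, p = 0.0126, where 0.00126 is the smallest p that 7 against 5 tumours allow, and adjusted p = 0.240 over the same measures). Even that smallest p could not pass adjustment over the 50 measures unless other measures were similarly low. The adjusted p-values of these measures within the set therefore cannot decide whether a difference was there. The difference within the set was 871 to 1289 clones with each of its 12 tumours left out in turn, and its exact p rose to 0.0576 only without aPD-1 tumour 13. The highest value, 6844, was that of AC484 tumour 10, whose library was under 3.5 nM. Without that tumour the difference over all tumours was 922 (permutation test, adjusted p = 0.008), and without all 4 libraries under 3.5 nM it was 787 (permutation test, adjusted p = 0.0542). In this tissue, taken whole, T cell number and TCR RNA per cell were not measured, and their part in these numbers was not tested.

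**Figure D1:**
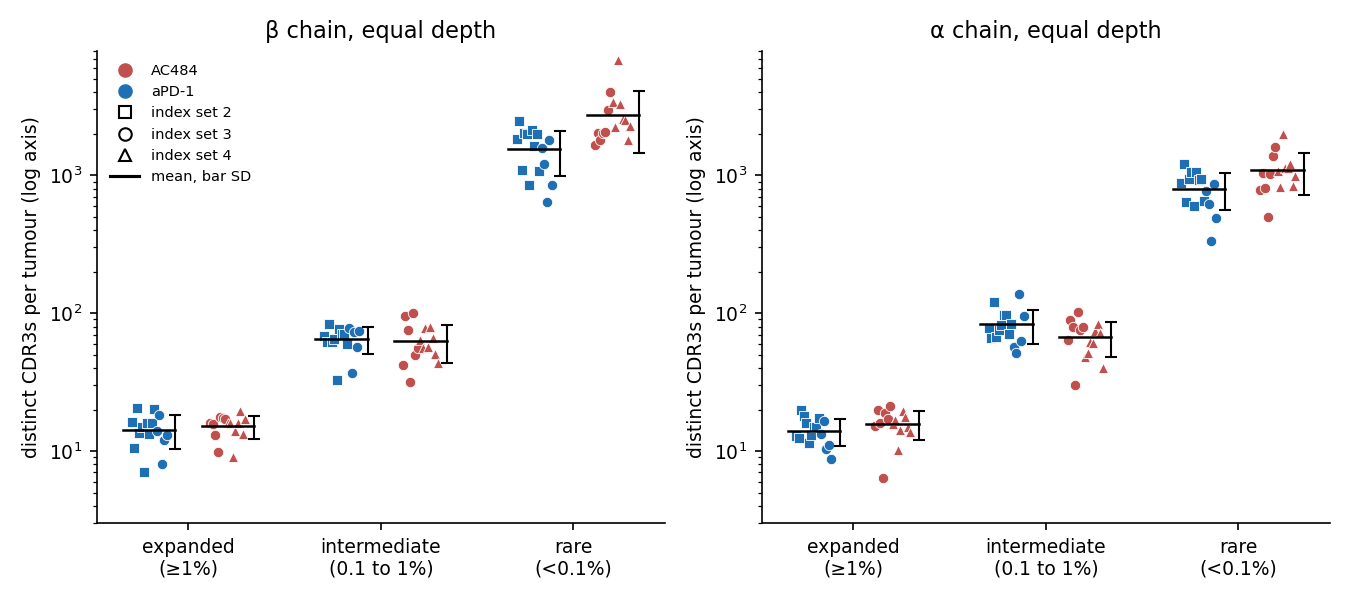
Number of expanded, intermediate and rare TRB (β chain) and TRA (α chain) clones per tumour (points, log axis) after drawing every tumour to the same number of reads, with colours for treatments, shapes for index sets and bars for the mean ± SD. The rare TRB clones of the 15 AC484 tumours all lie above the aPD-1 median of 1642, whereas the expanded and intermediate clones of both treatments overlap around means of 15.2 and 14.2 and of 62.9 and 64.6.

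At the other end of the spectrum no difference passed the test. Expanded TRB clones numbered 9 to 19.5 with AC484 (median 16) and 7 to 20.6 with aPD-1 (median 14), with means of 15.2 ± 2.88 and 14.2 ± 3.93 (difference 0.93, 95% interval −1.41 to 3.33, permutation test, adjusted p = 0.781). Intermediate TRB clones numbered 62.9 ± 19.4 and 64.6 ± 14.2 (difference −1.70, 95% interval −13.0 to 10.4, permutation test, adjusted p = 0.985). These intervals include differences of several clones in either direction. Expanded clones held 35.1% to 78.1% of the drawn TRB reads with AC484 and 53.4% to 80.0% with aPD-1 (means 58.5% ± 11.0 and 62.1% ± 7.74, difference −3.66 points, 95% interval −10.4 to 2.82, permutation test, adjusted p = 0.750). The largest clone held 16.9% ± 11.1 of the reads with AC484 and differed by −0.0239 points from aPD-1 (95% interval −8.48 to 8.02). The clones ranked 2 to 10 together held 34.1% ± 6.12 with AC484 and 38.5% ± 6.88 with aPD-1, a difference of −4.41 points that did not pass the test (95% interval −8.97 to 0.118, permutation test, p = 0.0745, adjusted p = 0.465). Rare clones held 23.3% ± 7.51 of the TRB reads with AC484 and 19.9% ± 4.37 with aPD-1 (permutation test, adjusted p = 0.623).

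The rare TRB clones were then split by the number of drawn reads, a step chosen after seeing the data. Clones with a single read numbered 470 to 3887 with AC484 (median 1086) and 129 to 822 with aPD-1 (median 474). The means were 1272 ± 935 and 441 ± 219 (permutation test, adjusted p = 0.00078 over the 6 classes of both chains, of which 3 passed, 50.0%). Clones with 2 or 3 reads numbered 800 ± 332 and 447 ± 212, and every AC484 tumour was above the aPD-1 median (permutation test, adjusted p = 0.00141). With at least 4 reads the numbers were 687 ± 233 and 657 ± 173, and the ranges of 279 to 1140 and 387 to 950 overlapped over most of their length (permutation test, p = 0.694). Of the difference of 1214 rare TRB clones, 831 were thus clones of 1 read, 353 of 2 or 3 reads and 29.9 of at least 4. In index set 3 the single-read clones numbered 980 against 337 (exact permutation test, p = 0.0455, adjusted p = 0.102), those with 2 or 3 reads 704 against 321 (exact permutation test, p = 0.00758, adjusted p = 0.0455) and those with at least 4 reads 675 against 556 (exact permutation test, p = 0.340). Reads carried no molecular identifiers, so whether a single read stood for a separate T cell or for an altered copy of a larger clone was not tested at the nucleotide level. At the amino acid level, rare TRB CDR3s that differed by 1 residue from a clone at least 100 times larger in the same tumour made up 0.491% ± 0.200 with AC484 and 0.401% ± 0.191 with aPD-1 (permutation test, adjusted p = 0.689).

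**Figure D2:**
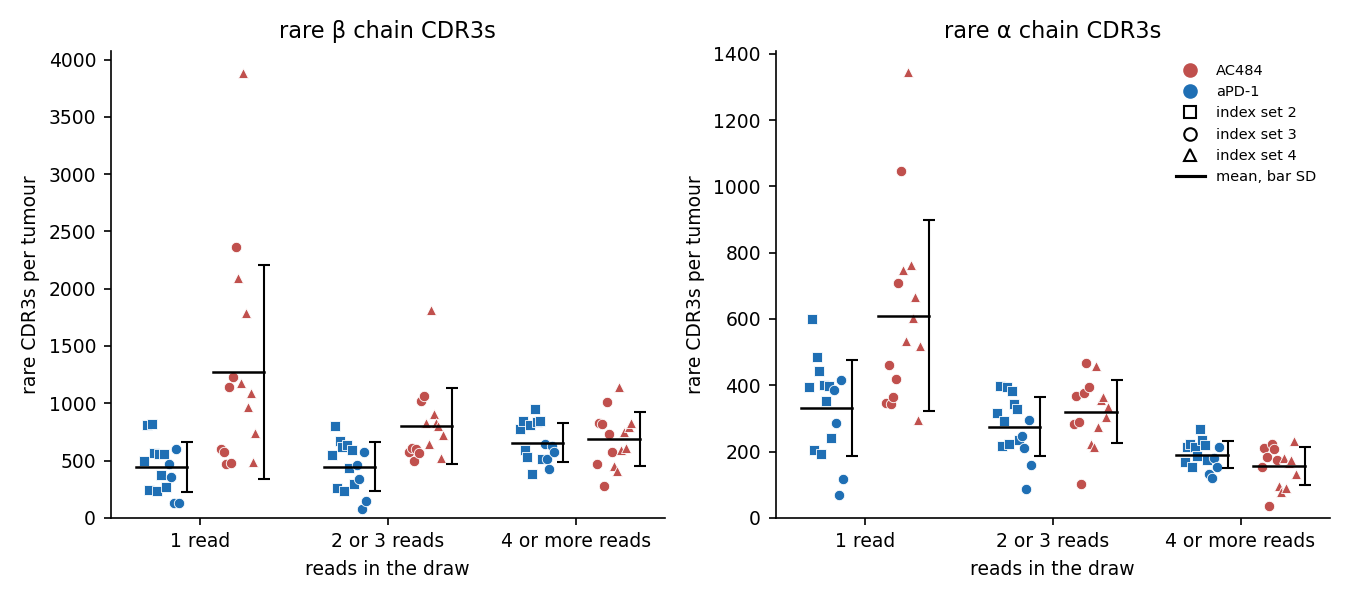
Rare TRB and TRA clones per tumour (points) split into those with 1 read, with 2 or 3 reads and with at least 4 reads of the equalized total, with colours for treatments, shapes for index sets and bars for the mean ± SD. For TRB the ranges overlap in every class, and the means lie apart at 1 read (1272 and 441) and at 2 or 3 reads (800 and 447) and close at 4 or more reads (687 and 657).

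For the α chain the same direction was seen with a smaller difference that did not pass the test. Rare TRA clones numbered 500 to 1984 with AC484 (median 1040) and 333 to 1212 with aPD-1 (median 861). The means were 1087 ± 363 and 798 ± 239 (difference 288, 95% interval 80.9 to 510, permutation test, p = 0.013, adjusted p = 0.216). Within index set 3 they were 1022 and 615 (exact permutation test, p = 0.0543), and the aPD-1 tumours of set 3 had 275 fewer rare TRA clones than those of set 2 (exact permutation test, p = 0.0303). Single-read TRA clones numbered 610 with AC484 and 333 with aPD-1 (permutation test, adjusted p = 0.0019), those with 2 or 3 reads 320 and 275 (adjusted p = 0.234) and those with at least 4 reads 156 and 190 (adjusted p = 0.108). In index set 3 single-read TRA clones numbered 527 against 255 (exact permutation test, p = 0.0631, adjusted p = 0.102). Those with 2 or 3 reads numbered 326 against 200 there (adjusted p = 0.102). With at least 4 reads the sign turned in that set, with 169 against 160 (exact permutation test, p = 0.821). Expanded TRA clones numbered 15.8 and 14.1 on average (difference 1.73, 95% interval −0.733 to 4.09, permutation test, adjusted p = 0.664) and held 58.7% ± 10.6 and 58.4% ± 6.75 of the drawn TRA reads. Intermediate TRA clones numbered 67.5 ± 19.3 and 82.9 ± 23.4 (permutation test, adjusted p = 0.465). The largest TRA clone held more of the reads in the aPD-1 tumours of set 3 than in those of set 2, by 11.2 points (exact permutation test, p = 0.00433). The p-values of these gaps between index sets under 1 treatment were not adjusted over the 50 measures.

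The rare TRA CDR3s of the AC484 tumours carried more acidic residues than those of the aPD-1 tumours. Net charge was counted in the centre of each CDR3, without the first 4 and last 4 residues, as lysines and arginines minus aspartates and glutamates. Per rare TRA CDR3 it was −0.291 to −0.202 with AC484 (median −0.232) and −0.212 to −0.146 with aPD-1 (median −0.191). None of the 15 AC484 tumours lay above the aPD-1 median, and the ranges overlapped between −0.212 and −0.202. The means were −0.236 ± 0.0237 and −0.185 ± 0.0197 (difference −0.0509, 95% interval −0.0667 to −0.0363, permutation test, p = 1e-05, the smallest that the resamples allow, adjusted p = 0.0005). In index set 3 the means were −0.227 and −0.185 (exact permutation test, p = 0.00505, adjusted p = 0.240). The aPD-1 tumours of set 2 had the same mean as those of set 3, −0.185, and the AC484 tumours of set 4 had −0.244. Without the 4 libraries under 3.5 nM the difference was −0.0449 (permutation test, adjusted p = 0.0005), and with any 1 of the 30 tumours left out it was −0.0533 to −0.0470. This was the second of the measures that passed the test.

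**Figure D3:**
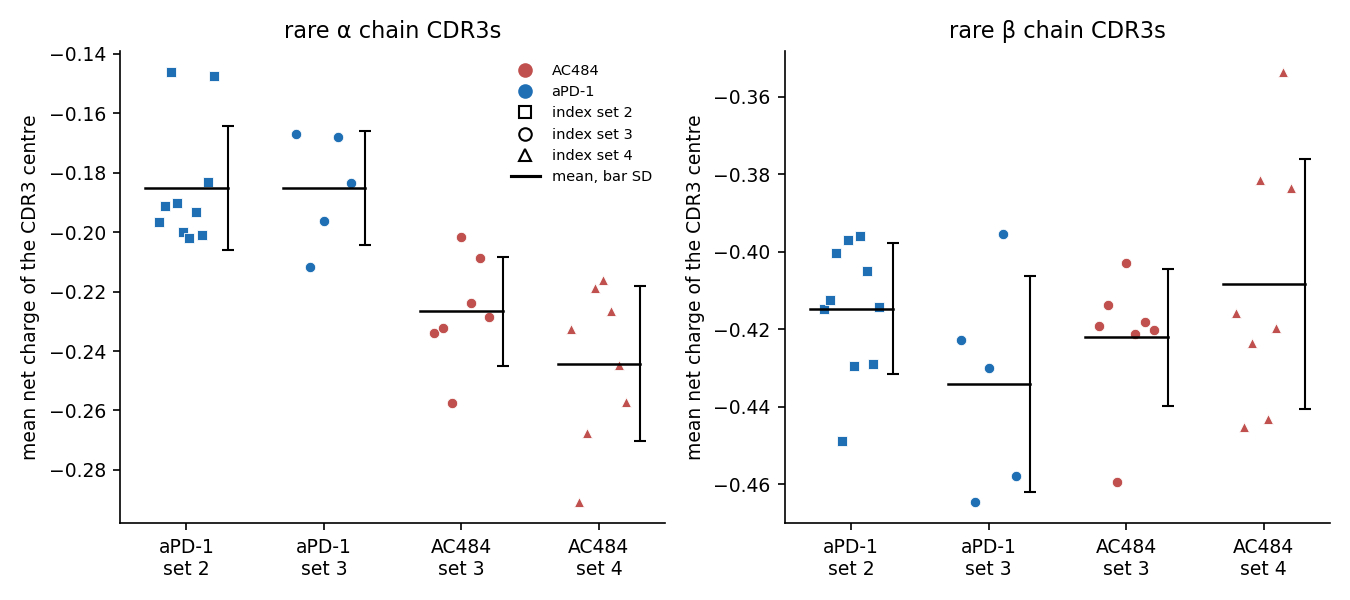
Mean net charge of the CDR3 centre of rare TRA and rare TRB clones per tumour (points) by treatment and index set, with bars for the mean ± SD. For TRA the AC484 tumours lie lower in set 3 (−0.227) and set 4 (−0.244) than the aPD-1 tumours in sets 2 and 3 (−0.185 in each), whereas for TRB the sets of both treatments overlap.

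In the other classes and the β chain the charge did not pass the test. In rare TRB CDR3s the net charge was −0.415 ± 0.0266 with AC484 and −0.421 ± 0.0223 with aPD-1 (permutation test, adjusted p = 0.781). In expanded TRA CDR3s the mean net charge was below that of rare ones under both treatments, with −0.656 ± 0.181 for AC484 and −0.706 ± 0.246 for aPD-1 (permutation test, adjusted p = 0.815). Intermediate TRA CDR3s lay between, at −0.418 ± 0.0721 and −0.387 ± 0.101 (permutation test, adjusted p = 0.750). The spread of the expanded class was wide, since each tumour had few such clones, and whether the treatment difference itself differed between classes or chains was not tested. Hydropathy of the centre passed the test in none of the classes of either chain. For rare clones it was −1.22 against −1.21 for TRA and −1.08 against −1.09 for TRB (permutation test, adjusted p = 0.750 and 0.689).

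Residue by residue, 2 of 120 shares (20 residues in 3 classes of both chains) passed the test, which is 1.67%, and 11 had an unadjusted p under 0.05. Both were acidic residues of rare TRA clones. Aspartate made up 3.86% to 4.65% of the centre residues with AC484 (median 4.14%) and 3.44% to 4.08% with aPD-1 (median 3.93%), with means of 4.17% ± 0.208 and 3.84% ± 0.213 (permutation test, adjusted p = 0.0036). Glutamate made up 2.61% to 3.25% (median 2.95%) and 2.07% to 3.08% (median 2.68%), with means of 2.94% ± 0.159 and 2.61% ± 0.225 (permutation test, adjusted p = 0.0036). For each of these residues 14 of 15 AC484 tumours were above the aPD-1 median. Within index set 3 aspartate was 4.05% against 3.82% (exact permutation test, p = 0.0189) and glutamate 2.94% against 2.64% (exact permutation test, p = 0.0101), and neither passed adjustment over the shares there. The smallest p possible in that set could not pass by itself over so many shares, so this adjustment cannot decide. The glutamate call depended on the residues counted and on the least-read clones. The difference, 0.324 points here, was 0.0976 over the whole CDR3 (permutation test, adjusted p = 0.133), 0.173 with 3 residues left out at each end (adjusted p = 0.224) and 0.272 without single-read CDR3s (adjusted p = 0.0735). Among single reads alone neither residue passed (adjusted p = 0.0516 for glutamate and 0.531 for aspartate), whereas aspartate kept its call in the other 3 of these settings, with 0.176 points over the whole CDR3 against 0.335 here. Glycine, the most flexible residue, made up 21.1% ± 0.313 and 21.7% ± 0.563 (permutation test, adjusted p = 0.0508), and arginine 2.61% ± 0.213 and 2.79% ± 0.174 (permutation test, adjusted p = 0.209). In rare TRB clones no residue passed the test, the lowest p being that of glutamine at 6.07% against 6.33% (permutation test, adjusted p = 0.143).

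**Figure D4:**
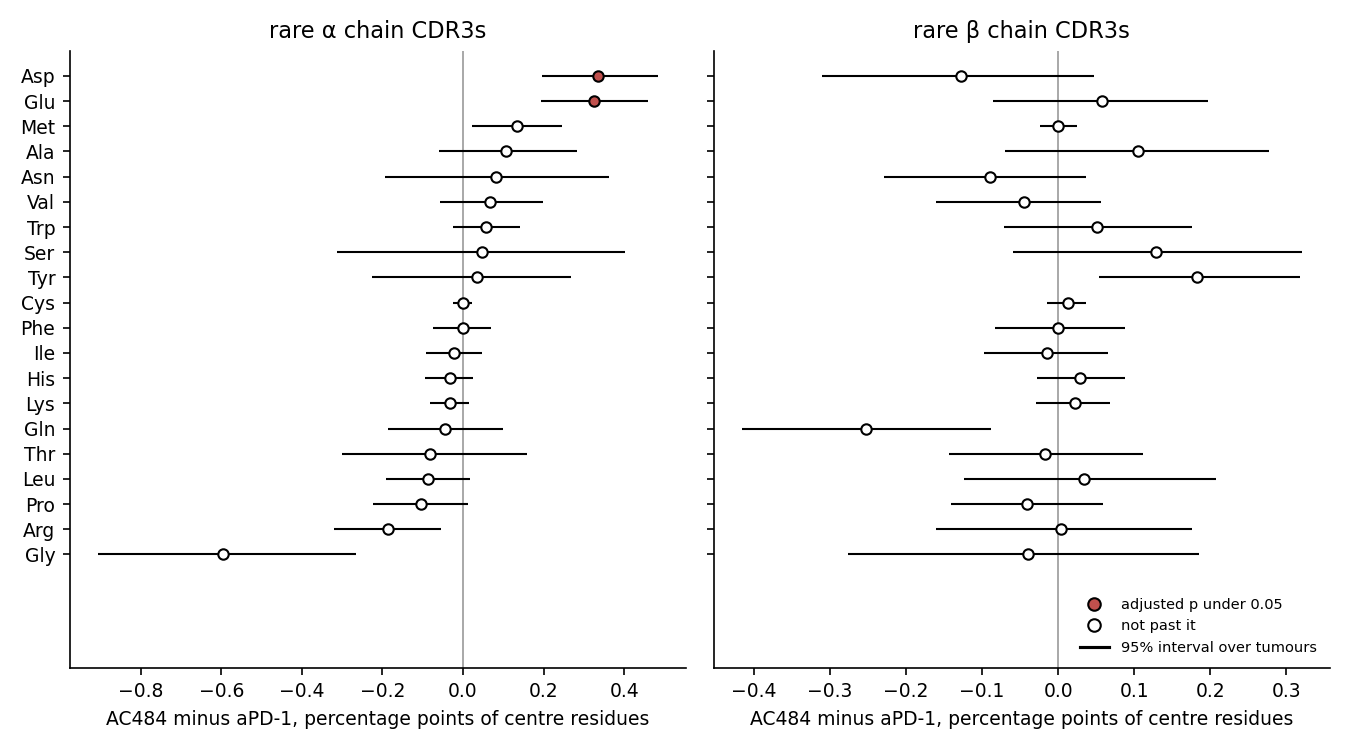
Difference in the share of each amino acid in the CDR3 centre of rare clones, AC484 minus aPD-1 in percentage points, for TRA and TRB, with 95% intervals over tumours (lines) and filled points for an adjusted p under 0.05. Aspartate (4.17% against 3.84%) and glutamate (2.94% against 2.61%) of TRA passed the test after adjustment.

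The acidic residues were placed within the CDR3, again by a step chosen after seeing the data. The part before the J match is made by the V segment's end and the joint, and the J match is the longest run at the CDR3's end that equals a germline J gene. Both parts were counted within the CDR3 centre alone, as the net charge was. The residues left out at each end, among them the lysine near the end of many TRA J genes, were therefore not counted. Of the 15 counts of charged residues compared, 8 passed the test (53.3%). These counts are parts of the net charge above, so they place its difference and are not separate support for it. Before the J match, rare TRA CDR3s held 0.266 ± 0.0153 acidic residues with AC484 and 0.240 ± 0.0156 with aPD-1 (permutation test, adjusted p = 0.00105), and 14 of 15 AC484 tumours were above the aPD-1 median. In index set 3 the values were 0.265 and 0.240 (exact permutation test, p = 0.00505, adjusted p = 0.0379). Basic residues before the J match numbered 0.120 and 0.123 per CDR3 (permutation test, adjusted p = 0.482).
In the part of the J match that lies in the centre, acidic residues numbered 0.135 against 0.122 (permutation test, adjusted p = 0.00565) and basic residues 0.0450 against 0.0531 (permutation test, adjusted p = 0.00867). In index set 3 the basic residues there were 0.0445 against 0.0544 (exact permutation test, p = 0.00253, adjusted p = 0.0379), and the acidic ones 0.129 against 0.121 (exact permutation test, p = 0.128). By position from the first residue of the CDR3, acidic residues were more frequent with AC484 at position 5 (0.235 against 0.218 per CDR3, permutation test, adjusted p = 0.0031), position 6 (0.0726 against 0.0649, adjusted p = 0.00993) and position 7 (0.0378 against 0.0320, adjusted p = 0.00867), and at position 8 the values were 0.0160 and 0.0136 (adjusted p = 0.0635). In index set 3 the differences at positions 5, 6 and 7 kept their sign and did not pass (exact permutation test, adjusted p = 0.199, 0.178 and 0.239).
Rare TRB CDR3s held 0.548 acidic residues before the J match with AC484 and 0.550 with aPD-1 (permutation test, adjusted p = 0.861). At single positions of TRB there were differences of opposite sign, 0.183 against 0.175 at position 5 (permutation test, adjusted p = 0.0185) and 0.180 against 0.191 at position 6 (adjusted p = 0.0202). In index set 3 both kept their sign and did not pass (exact permutation test, adjusted p = 0.322 and 0.178).

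Mean CDR3 length did not pass the test in any class of either chain. Rare TRA CDR3s were 13.64 ± 0.0337 residues long with AC484 and 13.60 ± 0.0619 with aPD-1, and all 15 AC484 tumours were above the aPD-1 median (difference 0.0350, 95% interval −0.000153 to 0.0690, permutation test, p = 0.0653, adjusted p = 0.465). Rare TRB CDR3s differed by −0.0117 residues (95% interval −0.0342 to 0.0101, permutation test, adjusted p = 0.750). Expanded CDR3s were 13.95 against 13.86 residues long for TRB and 13.87 against 13.86 for TRA (permutation test, adjusted p = 0.815 and 0.994).
By single lengths, 2 of 54 shares passed the test (3.70%), both among rare TRA clones. CDR3s of 13 residues made up 25.8% ± 0.950 with AC484 and 27.6% ± 1.51 with aPD-1 (permutation test, adjusted p = 0.0167), and 1 of 15 AC484 tumours was above the aPD-1 median. CDR3s of 17 residues made up 1.82% ± 0.368 and 1.33% ± 0.323 (permutation test, adjusted p = 0.0167), and all 15 AC484 tumours were above the aPD-1 median. In index set 3 the shares were 25.5% and 28.1% at 13 residues (exact permutation test, p = 0.0215) and differed by 0.343 points at 17 residues (exact permutation test, p = 0.158). Both calls were lost without the 4 libraries under 3.5 nM (−1.74 points, adjusted p = 0.0840, and 0.54 points, adjusted p = 0.0734, permutation test). Among expanded TRB clones, 14 residues was the length of 35.0% ± 10.1 with AC484 and 25.1% ± 9.60 with aPD-1, which did not pass adjustment (permutation test, p = 0.00955, adjusted p = 0.172).

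The J gene of a CDR3 was read from its end, and J use was counted over distinct CDR3s and tested with edgeR's quasi-likelihood test on 1 draw per tumour. Among expanded TRA clones 3 J genes were frequent enough to be tested and 1 of them passed (33.3%). This was Traj30 (chromosome 14, 54189866 to 54189924 in GRCm38), which was used less with AC484. It made up 0% to 14.3% of the expanded TRA clones with AC484 (median 5.56%) and 0% to 25% with aPD-1 (median 16.7%). No AC484 tumour was above the aPD-1 median. The means were 4.60% ± 4.52 and 15.3% ± 7.91 (log2 fold change −1.50 ± 0.39 SE, edgeR adjusted p = 0.000875), and within index set 3 they were 5.33% and 14.4%, where too few J genes were left to fit. Traj7 (chromosome 14, 54211470 to 54211528), the J gene of several of the largest clones shown above, made up 31.2% ± 11.7 and 27.9% ± 11.7 (log2 fold change 0.20, edgeR adjusted p = 0.411), and Traj33 3.01% and 5.60% (edgeR adjusted p = 0.353).

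Taken over all reads instead of a draw, in counts added after seeing the data, 14 expanded TRA clones of the AC484 tumours and 34 of the aPD-1 tumours used Traj30. No such clone was found in 5 AC484 tumours and in 1 aPD-1 tumour. They were 5.47% ± 4.75 and 15.7% ± 7.78 of the expanded TRA clones (permutation test, adjusted p = 0.00144 over 6 comparisons of Traj30 and Traj7), and in index set 3 5.32% and 14.8% (exact permutation test, p = 0.0379, adjusted p = 0.101). In the Vehicle tumours the share was 12.5% ± 9.39 (n = 14), between the treatments. The reads of these clones were 3.57% ± 5.62 and 6.21% ± 4.33 of all TRA reads and did not pass the test (permutation test, adjusted p = 0.258). Traj7 clones held 19.5% ± 10.3 of the TRA reads with AC484 and 23.6% ± 13.8 with aPD-1 (permutation test, adjusted p = 0.400), and in index set 3 19.9% against 35.6% (exact permutation test, p = 0.00884, adjusted p = 0.0530). In the other classes Traj30 did not pass the test, with 8.15% against 6.99% of intermediate clones (edgeR adjusted p = 0.872) and 3.97% against 3.94% of rare ones (edgeR adjusted p = 0.932).

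**Figure D5:**
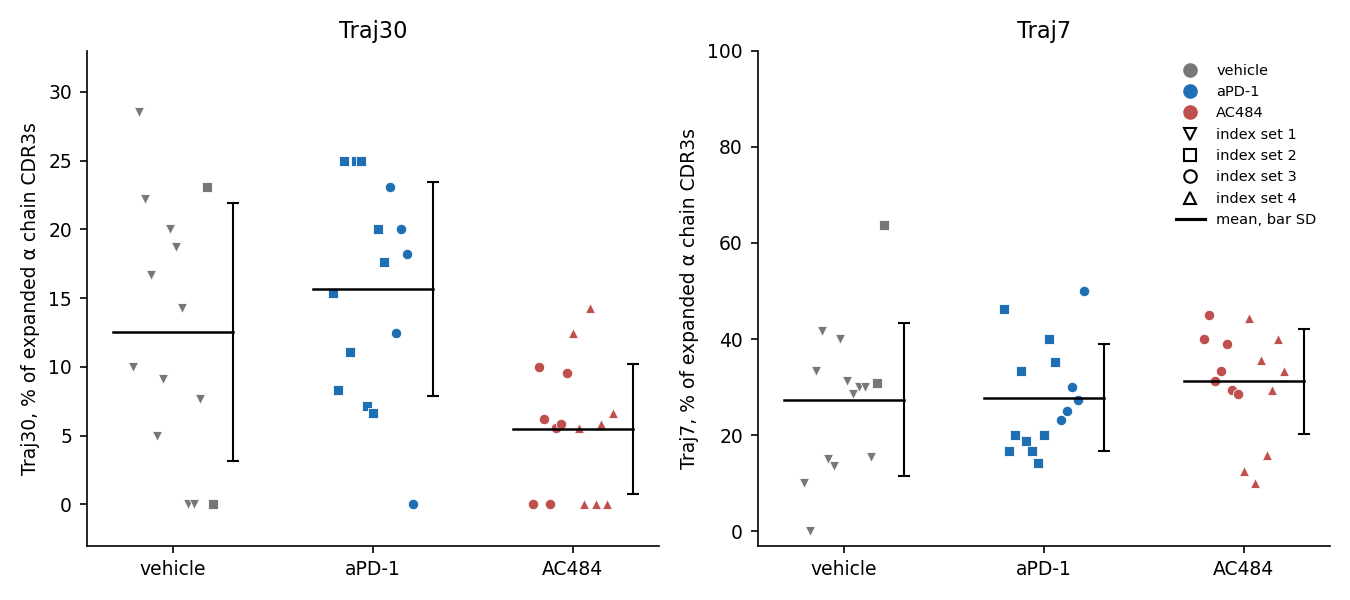
Share of expanded TRA clones that use Traj30 and Traj7 per tumour (points), by treatment and with the Vehicle tumours as background, taken over all reads, with shapes for index sets and bars for the mean ± SD. For Traj30 the AC484 tumours lie between 0% and 14.3% and the aPD-1 tumours between 0% and 25%. The ranges of the treatments overlap for both genes.

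These 48 expanded clones held 23 distinct Traj30 CDR3s. Of them 16 were expanded in 1 tumour (7 with AC484 and 9 with aPD-1), and the other 7 made up 7 clones with AC484 and 25 with aPD-1. The most widely expanded, 14 residues long and not printed here, held at least 1% of the TRA reads in 5 AC484 and 8 aPD-1 tumours and was read in all 30, with medians of 0.360% and 1.05%. A family of 3 others, which differ from each other at 1 residue, is shown with the number of tumours in which each reached 1%.
Expanded in 0 AC484 and 7 aPD-1 tumours: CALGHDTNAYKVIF
Expanded in 1 AC484 and 3 aPD-1 tumours: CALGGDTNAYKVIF
Expanded in 0 AC484 and 2 aPD-1 tumours: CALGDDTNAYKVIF
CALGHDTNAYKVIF was read in all 15 AC484 tumours, at 0.0162% to 0.766% of the TRA reads (median 0.307%), and in 14 aPD-1 tumours, at up to 4.58% (median 0.848%). It was thus present under both treatments and crossed 1% with aPD-1 alone, and it was also expanded in 7 of 14 Vehicle tumours. Fisher's exact test on the numbers of tumours gave p = 0.00632 and an adjusted p of 0.392 over the 62 CDR3s expanded in at least 2 tumours, of which 0 passed (0.00%) and 1 had an unadjusted p under 0.05.

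Some other CDR3s were expanded under both treatments. Over the whole libraries there were 442 expanded TRB clones, 228 with AC484 and 214 with aPD-1, of 399 distinct CDR3s, and 28 of these were expanded in at least 2 tumours. There were 447 expanded TRA clones, 237 and 210, of 343 distinct CDR3s, and 34 were expanded in at least 2 tumours. To show which sequences recur, the Traj7 CDR3s expanded in at least 5 tumours and the TRB CDR3s of at most 14 residues expanded in at least 4 are given, followed by 2 TRB relatives picked for their likeness after their values were seen.
Expanded in 10 AC484 and 9 aPD-1 tumours, Traj7: CAAKDYSNNRLTL
Expanded in 7 AC484 and 9 aPD-1 tumours, Traj7: CAASDYSNNRLTL
Expanded in 3 AC484 and 2 aPD-1 tumours, Traj7: CAARDYSNNRLTL
Expanded in 2 AC484 and 3 aPD-1 tumours, Traj7: CAATDYSNNRLTL
Expanded in 1 AC484 and 3 aPD-1 tumours, Trbj2-7: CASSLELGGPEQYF
Expanded in 1 AC484 and 3 aPD-1 tumours, Trbj2-4: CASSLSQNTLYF
Expanded in 2 AC484 and 0 aPD-1 tumours, Trbj2-7: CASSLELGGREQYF
Expanded in 2 AC484 and 0 aPD-1 tumours, Trbj2-7: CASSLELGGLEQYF
CAAKDYSNNRLTL reached 29.7% of the TRA reads with AC484 and 15.0% with aPD-1, with medians of 1.78% and 1.38%. CAASDYSNNRLTL reached 21.7% and 35.0%, with medians of 0.960% and 2.91%. The CDR3 of the invariant α chain of mouse natural killer T cells, which uses Traj18, was read in all 30 tumours and was expanded in 3 of each treatment, with medians of 0.696% and 0.559%. The 3 TRB CDR3s that use Trbj2-7 differ from each other at 1 residue, and the highest shares they reached were 28.6% in an aPD-1 tumour for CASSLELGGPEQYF and 17.9% in an AC484 tumour for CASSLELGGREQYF. These counts depend on the 1% limit. With aPD-1 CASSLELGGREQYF reached 0.908% and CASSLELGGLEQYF 0.00459%, and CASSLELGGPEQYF held 0.989% in AC484 tumour 6.

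Among rare clones, J use moved little. For TRA 2 of 43 J genes passed the test (4.65%), both used less with AC484. Traj15 (chromosome 14, 54204422 to 54204481) made up 2.40% to 4.90% of rare TRA clones with AC484 and 3.19% to 5.90% with aPD-1, with means of 3.38% ± 0.651 and 4.18% ± 0.683 (log2 fold change −0.30 ± 0.09 SE, edgeR adjusted p = 0.0198). Traj12 (chromosome 14, 54206553 to 54206610) made up 1.84% to 3.57% and 2.58% to 4.77%, with means of 2.73% ± 0.470 and 3.44% ± 0.630 (log2 fold change −0.33 ± 0.10 SE, edgeR adjusted p = 0.0198). For each of them 2 of 15 AC484 tumours were above the aPD-1 median. The germline end of Traj15 places an arginine inside the CDR3 centre, and the lysine of Traj12 falls among the last 4 residues, outside it. In index set 3 the log2 fold changes were −0.38 for Traj15 (edgeR, p = 0.0177) and −0.40 for Traj12 (edgeR, p = 0.0235), with adjusted p = 0.254 for each. The Traj15 call was lost without aPD-1 tumour 2, 6 or 10 or AC484 tumour 9 or 10 (edgeR adjusted p = 0.0506 to 0.102), and the Traj12 call without aPD-1 tumour 6, 7 or 12 or AC484 tumour 9 or 13 (edgeR adjusted p = 0.0511 to 0.0720). The most used J genes of rare TRA clones were Traj22 with 5.68% and 5.36%, Traj23 with 4.72% and 5.35% and Traj31 with 4.89% and 4.85%, and none of them passed the test.

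For rare TRB clones 1 of 12 J genes passed (8.33%). Trbj2-5 (chromosome 6, 41543453 to 41543501) made up 10.3% to 14.0% with AC484 and 10.9% to 13.9% with aPD-1, with means of 11.5% ± 0.913 and 12.5% ± 0.783 (log2 fold change −0.12 ± 0.04 SE, edgeR adjusted p = 0.0228). Its share was 12.0% in the AC484 tumours of set 3 and 11.0% in those of set 4, against 12.6% and 12.4% in the aPD-1 tumours of sets 3 and 2. Within set 3 the log2 fold change was −0.05 (edgeR, p = 0.472), and the call was lost without aPD-1 tumour 2 or 5 (edgeR adjusted p = 0.0751 and 0.0589). Trbj2-7, the most used, made up 20.5% and 20.2%, and Trbj2-1 13.8% and 13.2%.
Among expanded TRB clones 0 of 9 J genes passed (0.00%) and 0 had an unadjusted edgeR p under 0.05. Too rare for this test was Trbj2-2, with 7.25% ± 9.01 with AC484 and 1.24% ± 2.60 with aPD-1. The same held for Trbj1-6 (2.74% and 5.50%) and Trbj1-5 (1.32% and 1.56%). When the limit on J genes was lifted, 0 passed as well. Trbj2-7 made up 24.5% and 20.5% of them, Trbj2-3 11.9% and 13.4% and Trbj1-1 12.6% and 11.8%. Among intermediate clones 0 of 12 TRB and 0 of 37 TRA J genes passed (0.00% each), with 1 unadjusted edgeR p under 0.05 in each chain. For TRB it was that of Trbj1-1, with 14.9% ± 6.08 against 10.3% ± 4.54 (log2 fold change 0.49, edgeR adjusted p = 0.104). That gene passed when aPD-1 tumour 3 or 7 or AC484 tumour 5 or 13 was left out (edgeR adjusted p = 0.0363 to 0.0461). The length of the J match in rare CDR3s was 8.47 and 8.45 residues for TRA and 5.81 in both for TRB (permutation test, adjusted p = 0.689 and 0.985).

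The Vehicle tumours, which were shallower, allow a comparison at 6415 TRB and 1466 TRA reads per tumour. At that depth rare TRB clones numbered 953 with AC484, 696 with aPD-1 and 364 ± 281 with Vehicle (n = 14), and rare TRA clones 240, 205 and 113. The net charge of rare TRA CDR3s was −0.238 ± 0.0314 with AC484, −0.185 ± 0.0179 with aPD-1 and −0.266 ± 0.125 with Vehicle, whose spread spans both treatments. All Vehicle tumours lay in index sets 1 and 2, which held no AC484 tumour.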

How the data were processed

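TCR transcripts of bulk B16 tumours were captured by the authors with the SMARTer Mouse TCR a/b kit, sequenced on a MiSeq and assembled with MiXCR into amino acid clonotypes (mm10 in the submitters' notes). As deposited, each entry is a raw read count for 1 CDR3 in 1 tumour, with chains mixed, no depth normalization and neither V genes nor nucleotides. The deposited fraction of each clone, its count over the tumour's total, was not used. Other deposited columns gave CDR3 length, index primer set and library concentration in nM.

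The end of each CDR3 was compared with 12 TRB and 46 TRA germline J ends of GRCm38, and the longest match, of 4 residues or more, gave its chain and J gene. Of 155430 entries in the 30 tumours 63.6% were TRB, 34.4% TRA and 2.06% unassigned, and 97.6% and 99.0% of TRB and TRA entries matched 1 J gene. Measures are means of 20 draws. Differences were tested by two-sided permutation over tumours (100000 resamples, exact in index set 3 with 792 splits), with 95% intervals from 10000 redraws of the tumours and Benjamini-Hochberg adjustment within families at 0.05. J use was tested with edgeR on genes with at least 20 distinct CDR3s. P-values measure the spread between tumours, and the draws account for read sampling alone. Scripts were tested on simulated data. The J genes named were those past the threshold and the most used of each class, and the CDR3s named were the largest and the most shared, plus single-residue relatives picked after their values were seen. The tumours, measures and lists were chosen with earlier results of these data known.

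Alternatives covered the depth step, class limits, CDR3 ends, filters, tests, J use models and tumours left out. In the setting without carry-over, entries under 1% of the same CDR3's largest count in any tumour were left out. The tools were R 4.3.3 with edgeR 4.0.16 and DESeq2 1.42.0, and Python 3.11.15 with SciPy 1.17.1, NumPy 2.4.6, pandas 2.3.3 and matplotlib 3.10.9 for figures.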

Additional observations from a re-analysis of the deposited data

Results flagged for a closer look

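In AC484 tumour 12, 6.44% of the reads matched neither chain by their J end and entered no comparison, above the highest share in a Vehicle tumour, 4.60%. A single CDR3, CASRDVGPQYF, made up 17479 of these 18327 reads. Its ending QYF is also that of Trbj2-5 and Trbj2-7 but is shorter than the 4 residues required. Its chain was not tested further. For comparison, 193263 reads of this tumour were assigned to TRB. The clone numbers and shares of this tumour leave this CDR3 out.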

How the results depend on the processing

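Of 1339 values in 32 results recomputed under other settings, 1224 kept their direction and their side of the threshold. Same-numbered tumours of the treatments did not deviate together (correlations −0.265 to 0.275 over 15 pairs, 5 above 0.1), so the numbers were not taken as pairs. With the replicate number as a block, the difference in rare TRB clones of 1214 had an adjusted p of 0.0626, the lengths called fell to 0 and the J genes called among rare TRB clones to 0, and Traj30 remained called among expanded TRA clones.

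The difference in rare TRB clones lost its call at the depth of all 44 tumours (257), without single-read CDR3s (721), in the methods' t-test (1214, adjusted p = 0.0668), in index set 3 alone (1144) and without the libraries under 3.5 nM (787, added after seeing the data), and was 922 to 1293 with 1 tumour left out. For rare TRA clones it passed without depth normalization (1166), with both chains drawn to 1 total (849) and for single reads (278), and was 224 to 330 with 1 tumour left out. The charge difference of rare TRA CDR3s lost its call in index set 3 alone (−0.0414), was −0.0480 to −0.0363 there with 1 tumour left out, and kept it in the other 18 settings. The difference within set 3 in rare TRB clones was 871 to 1289.

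Differences that had not passed turned sign for expanded TRB clones at 2% (−0.197), intermediate TRB clones in set 3 (0.481, and −4.33 to 0.515 with 1 tumour left out), rare TRB length without depth normalization (0.000105), weighted by reads (0.00567) and in set 3 (0.00416), rare TRB J match without carry-over (−0.00222, and −0.000439 to 0.00675 with 1 tumour left out) and rare TRB near-copies without depth normalization (−0.00912) and for single reads (−0.0474). The rare TRA J match passed for single reads (0.0517).

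Called residue shares numbered 4 without depth normalization, with undrawn classes, over the whole CDR3, in the t-test and on ranks, 1 with 3 residues left out at each end, 0 for single reads and in set 3, and 2 to 4 with 1 tumour left out. Called lengths numbered 1 with both chains drawn to 1 total or weighted by reads, and 0 at the depth of all 44 tumours, for single reads, without single-read CDR3s, without near-copies, in set 3 and without the libraries under 3.5 nM. J genes called among rare TRA clones numbered 1 in a second draw and without carry-over, 0 with DESeq2, in set 3, with all 44 tumours in the fit and without the libraries under 3.5 nM, and 0 to 2 with 1 tumour left out. Among rare TRB clones they numbered 2 without depth normalization, 0 in set 3 and without the libraries under 3.5 nM, and 0 to 1 with 1 tumour left out, as among intermediate TRB clones. The causes of these changes were not tested. For expanded TRA clones Traj30 was called in each of 9 settings (log2 fold change −1.66 to −1.34), and set 3, all 44 tumours and 14 of 30 sets with 1 tumour left out had under 3 J genes and could not be fitted.

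Treatment and index set overlap in 12 tumours only, where none of the main measures and J genes passed adjustment, and elsewhere treatment and index set cannot be told apart. The smallest exact p in these 12 tumours, 0.00126, cannot by itself pass adjustment over 50 measures, 120 residue shares or 54 lengths. Calls of the permutation test that were lost in index set 3 after adjustment are therefore uninformative. V genes and nucleotides were not used here, so clones of 1 amino acid CDR3 with different V genes were counted together.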
